A study of Mus musculus with 18 samples.

Results

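Genes of mast cells and the eotaxin genes Ccl11 and Ccl24 were followed in RNA from mouse nasal mucosa. The set holds 9 of the 54532 genes of the deposited count table, chosen by gene symbol: the granule proteases Cpa3, Cma1, Mcpt4 and Tpsb2, the IgE receptor chains Fcer1a and Ms4a2, the histamine-forming enzyme Hdc, and the chemokines Ccl11 and Ccl24. Each symbol matched 1 row. The 18 libraries fall into 3 groups of 6. The C10 group received the compound C10, described in the series title as an inhibitor of APE1, an enzyme of DNA repair and redox control, at 10 mg/mL and 10 µL per side once daily for 10 days from the first papain dose. It is taken to hold papain-treated mice as well, because the protocol gives the compound to animals of the CRS model. The CRS group, a model of chronic rhinosinusitis, received 20 µg of papain, a plant protease, in 20 µL intranasally, over days 0 to 2 and again over days 7 to 11. What the control group (CON) received is not stated in the labels, nor are strain, age, sex, or a vehicle for C10. Separate animals are not stated either, so the p-values speak of the variation among libraries, which may be partly technical.

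Mast cells are resident immune cells of mucosa and connective tissue. They hold granules packed with proteases and histamine, and release them when antigen links IgE bound to the high-affinity IgE receptor on their surface. In airway mucosa they are known for their part in allergic and type 2 inflammation. Eotaxins are chemokines that bind the receptor CCR3 and draw eosinophils into tissue; Ccl11 is made mainly by fibroblasts and other structural cells, and Ccl24 mainly by macrophages and epithelium.

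The promoters of the genes are shown first, as a description of their sequence, and a relation of these sequences to the levels was not tested. GATA factors, among them GATA2 in mast cells, bind sequences with the core GATAA. Of the 9 genes, 6 matched a RefSeq promoter window of 250 bases before to 50 bases after the gene start (build GRCm38.p6); Tpsb2, Ccl11 and Ccl24 are named only. Of these windows 5 are printed, and that of Fcer1a was searched but is not shown. Each is given on the minus strand, where the gene lies, 5′ to 3′, and capitals mark GATAA or its reverse complement TTATC. Cpa3 lies at chr3:20242132-20242431, Cma1 at chr14:55944626-55944925, Mcpt4 at chr14:56062261-56062560, Ms4a2 at chr19:11623670-11623969 and Hdc at chr2:126618629-126618928.
Cpa3: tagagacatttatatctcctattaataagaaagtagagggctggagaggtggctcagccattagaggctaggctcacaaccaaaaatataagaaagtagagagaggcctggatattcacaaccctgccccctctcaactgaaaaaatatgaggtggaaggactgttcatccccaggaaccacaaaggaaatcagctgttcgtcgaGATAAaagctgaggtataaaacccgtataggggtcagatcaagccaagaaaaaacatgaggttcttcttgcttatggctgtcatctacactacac
Cma1: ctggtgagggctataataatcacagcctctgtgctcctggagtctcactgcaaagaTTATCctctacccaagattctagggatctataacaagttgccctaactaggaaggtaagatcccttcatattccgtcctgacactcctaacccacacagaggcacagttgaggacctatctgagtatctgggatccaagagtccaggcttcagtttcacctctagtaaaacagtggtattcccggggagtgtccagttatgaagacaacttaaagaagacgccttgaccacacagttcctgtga
Mcpt4: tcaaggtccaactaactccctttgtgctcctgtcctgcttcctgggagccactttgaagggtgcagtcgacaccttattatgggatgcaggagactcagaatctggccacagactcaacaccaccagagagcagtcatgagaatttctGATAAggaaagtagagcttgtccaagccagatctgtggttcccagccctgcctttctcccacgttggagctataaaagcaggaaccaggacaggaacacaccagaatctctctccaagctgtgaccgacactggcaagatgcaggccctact
Ms4a2: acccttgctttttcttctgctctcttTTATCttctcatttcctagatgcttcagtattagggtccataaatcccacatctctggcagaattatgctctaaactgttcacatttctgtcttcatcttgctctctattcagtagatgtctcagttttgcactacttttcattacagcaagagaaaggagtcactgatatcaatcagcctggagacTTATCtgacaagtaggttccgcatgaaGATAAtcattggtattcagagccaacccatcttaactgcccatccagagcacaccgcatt
Hdc: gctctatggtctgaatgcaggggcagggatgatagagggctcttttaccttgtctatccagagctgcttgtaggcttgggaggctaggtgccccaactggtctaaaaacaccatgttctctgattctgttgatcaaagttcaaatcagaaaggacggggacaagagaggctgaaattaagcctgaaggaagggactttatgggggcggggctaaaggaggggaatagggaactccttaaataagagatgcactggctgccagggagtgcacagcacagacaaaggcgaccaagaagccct
The motif was present in 5 of the 6 windows, those of Cpa3, Cma1, Mcpt4, Fcer1a and Ms4a2, and these letters were not in the Hdc window. RefSeq places the Hdc start inside the gene as it was counted, which reaches to 126619299, so the Hdc window does not lie at the counted start. Counted from the gene start, the match began at -45 in Cpa3, at -194 in Cma1, at -102 in Mcpt4 and at -92 in Fcer1a. Ms4a2 held 3 matches. Among the 32851 windows of all genes, 25.4% held at least 1 match, and 0.938% held at least 3. TATAAA, the core of the TATA box, was searched on both strands as well and stood in the windows of Cpa3, Mcpt4 and Fcer1a, against 13.6% of all windows; no match of the one motif overlapped a match of the other in these 6 windows. These matches describe the letters of the windows and no binding was measured.

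Library totals were 15883573 to 18128186 counts for C10, 16531779 to 17523368 for CRS and 16510920 to 18433866 for CON. The tissue label was checked against 6 genes of mature olfactory neurons, which line part of the nose: their summed level, in CPM (read counts scaled to a common library size), spanned 3500 to 6097 in C10, 2804 to 7122 in CRS and 2453 to 5864 in CON. CRS 1, CRS 2 and CRS 5 stood apart from the other libraries in an earlier analysis of these data, so values without them are given where they change a statement.

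At this depth, 6 of the 9 genes passed the filter on low counts and could be tested in all 3 comparisons: Cpa3, Cma1, Mcpt4, Tpsb2, Hdc and Ccl11. Fcer1a, Ms4a2 and Ccl24 did not. With a gene taken as detected in a library at 4 counts or more, Hdc and Ccl11 were detected in 18 of 18 libraries, Cma1 and Tpsb2 in 16, Cpa3 in 15 and Mcpt4 in 14. Ms4a2 was detected in 6 libraries, and Fcer1a and Ccl24 in 5 each. Ccl24 had 0 counts in 7 libraries, Ms4a2 in 4, Fcer1a in 2 and Cpa3 in 1. A value of 3 counts, the limit that a count of 0 allows, equals 0.163 to 0.193 CPM depending on the library and covers counting error only.

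**Figure D1:**
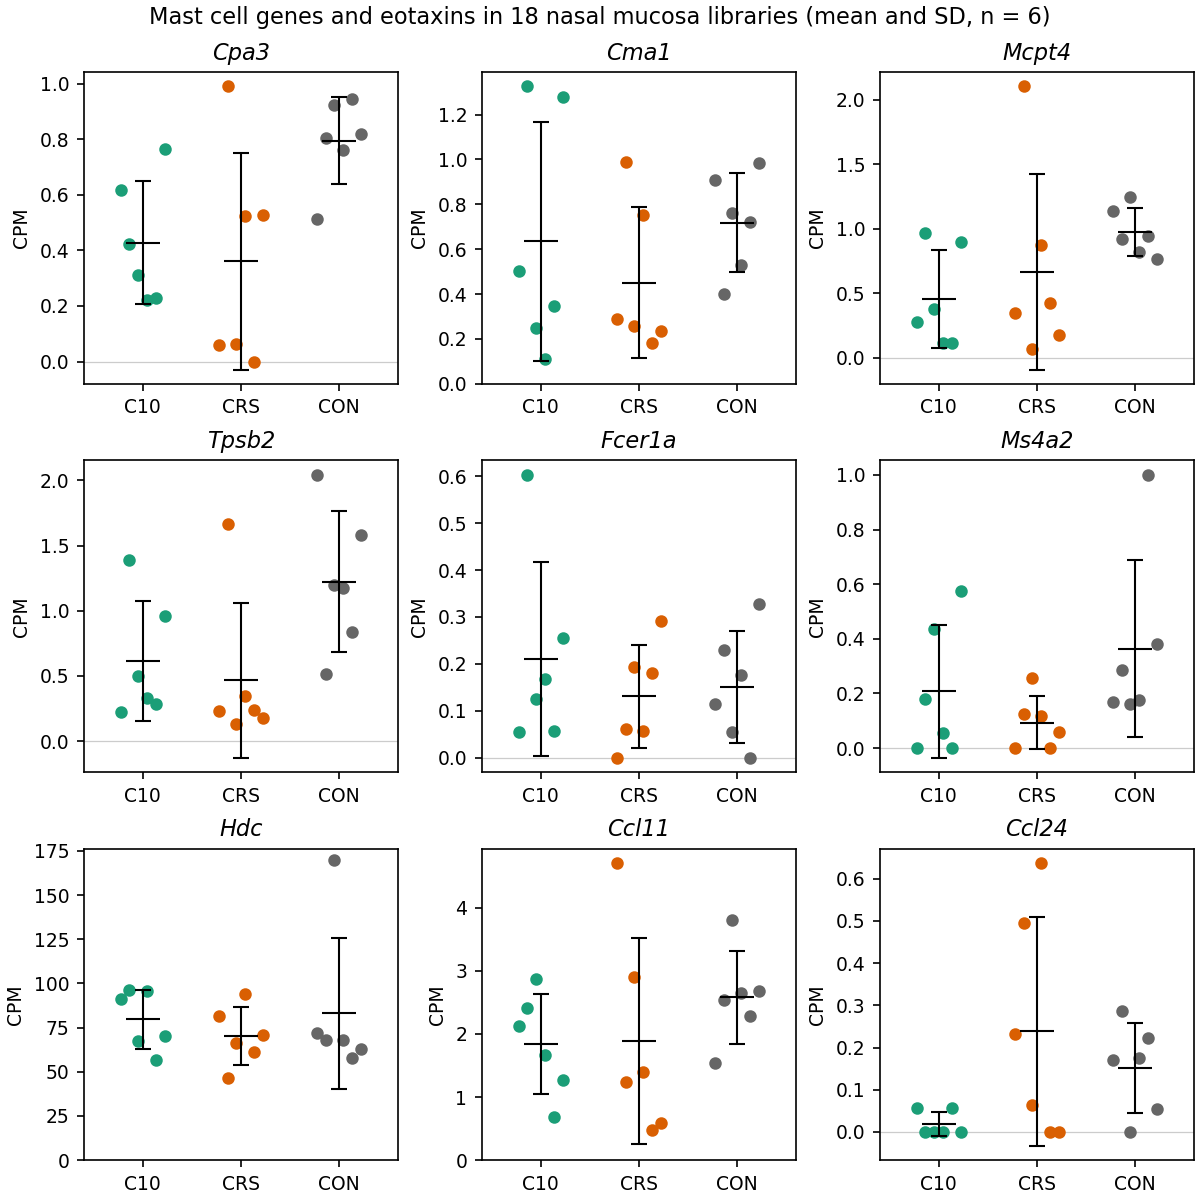
Level of each gene in CPM (vertical axes) in the libraries of C10, CRS and CON, 1 point per library; bars give the mean and SD (n = 6 each). The 4 protease panels stay near or below 2 CPM, Hdc lies between 46.7 and 169.9 CPM, and the groups overlap in all 9 panels.

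Compared per length, in FPKM over all 18 libraries, Hdc was the most abundant of the genes, at 12.0 ± 4.18 (SD, n = 18). Ccl11 followed at 1.93 ± 1.03 FPKM, below Hdc in 18 of 18 libraries (exact sign-flip permutation test, two-sided, p = 7.63e-06). Next came Tpsb2 at 0.703 ± 0.552 FPKM, lower than Ccl11 in 16 libraries (exact permutation p = 0.000168). Mcpt4 at 0.623 ± 0.461 and Cma1 at 0.546 ± 0.342 FPKM did not differ from their neighbours above beyond the spread (exact permutation p = 0.351 for Tpsb2 with Mcpt4 and 0.352 for Mcpt4 with Cma1; the upper gene was higher in 10 of 18 libraries in both). Cpa3 averaged 0.344 ± 0.211 FPKM and was lower than Cma1 in 14 libraries (exact permutation p = 0.00311). Fcer1a, at 0.162 ± 0.144 FPKM, was lower than Cpa3 in 14 libraries (exact permutation p = 0.00935). Ccl24 at 0.105 ± 0.141 and Ms4a2 at 0.0780 ± 0.0893 FPKM closed the order, and neither differed from its neighbour above beyond the spread (exact permutation p = 0.321 and 0.522). Adjusted over the 8 neighbouring pairs with the Benjamini-Hochberg method, the 4 differences just given as larger than the spread had exact permutation p of 6.1e-05, 0.000671, 0.00828 and 0.0187, and the other 4 had 0.403 to 0.522. The pairs were set by ranking these same values, so the exact permutation p are not a test of an order fixed beforehand. Among all tested genes, the mean FPKM of Hdc stood at percentile 76.9, Ccl11 at 30.7, and the proteases between 7.21 and 15.1. The ranks depend on the gene lengths behind the FPKM. Ms4a2 held 68 counts in total, more than Fcer1a with 50 and Ccl24 with 42, but over 2813 bases against 998 and 1295. The order is that of all libraries pooled and did not hold in each group: Cma1 at 0.574 FPKM lay above Tpsb2 at 0.560 in C10, Mcpt4 at 0.592 above Tpsb2 at 0.426 in CRS, and Ms4a2 above Ccl24 in C10 (0.0729 and 0.0145 FPKM) and in CON (0.128 and 0.116 FPKM).

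None of the 6 tested genes passed edgeR's quasi-likelihood test at an adjusted p under 0.05 in any comparison. The share of all 18291 tested genes that passed was 0.00547% in CRS against CON, 0.082% in C10 against CRS and 0.159% in C10 against CON. At an unadjusted p under 0.05, 1 of the 6 passed in CRS against CON (Tpsb2), 0 in C10 against CRS and 0 in C10 against CON, against 14%, 13.2% and 13.1% of all genes in the same order of comparisons. DESeq2 and limma on log2 FPKM called 0 of the genes as well. Of the 6, 0 had groups that did not overlap in a comparison, against 0.662%, 0.88% and 1.82% of all genes in that order. The fitted log2 fold change lay below 0 for 6 of 6 in CRS against CON, for 2 of 6 in C10 against CRS and for 6 of 6 in C10 against CON, where 49.2%, 48.3% and 47.4% of all genes lay below 0. Their median log2 fold changes were -0.61, 0.21 and -0.69, and those of all genes 0.0045, 0.0084 and 0.012. Passing the filter depended in part on CON: with only C10 and CRS fitted, 2 of the 6 genes passed it. Mcpt2, with 73 counts in C10, 75 in CRS and 25 in CON, did not pass, while Cpa3 with 43, 36 and 85 did. The signs and medians of the 6 are thus not independent of the filter, and its part in them was not tested. The comparisons share libraries, C10 against CON both of its groups with the other comparisons. In bulk tissue, fewer cells of a type and less RNA per cell cannot be told apart.

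**Figure D2:**
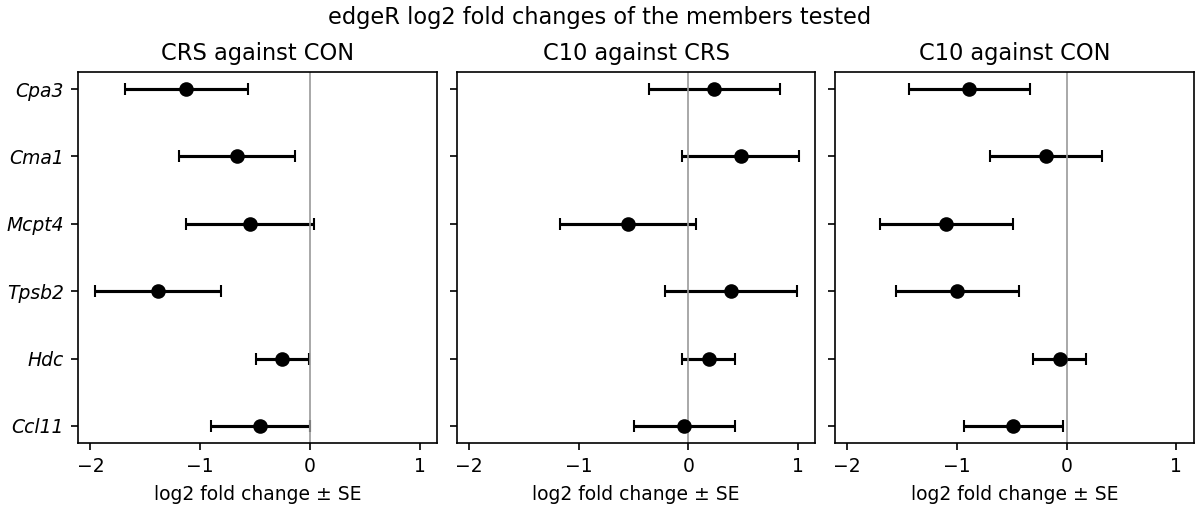
Log2 fold changes fitted by edgeR (horizontal axes) for the 6 genes tested, with bars of 1 SE, in CRS against CON, C10 against CRS and C10 against CON. Tpsb2 at -1.39 and Cpa3 at -1.13 lie lowest in CRS against CON, and in C10 against CRS all 6 points lie between -0.55 and 0.48.

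The 4 granule proteases had lower levels in most C10 and CRS libraries than in CON. Summed over Cpa3, Cma1, Mcpt4 and Tpsb2, the lowest, median and highest levels were 0.780, 1.53 and 4.10 CPM in C10, 0.515, 1.02 and 5.75 CPM in CRS, and 2.64, 3.79 and 4.60 CPM in CON. The sums rest on 14 to 68 counts per library in C10, 8 to 93 in CRS and 46 to 81 in CON. In C10, 4 of 6 libraries lay below the lowest CON library, and in CRS 5 of 6 did. CRS 2 was the exception in CRS and lay above the highest CON library, with 93 counts. The sum was not tested, and none of the 4 genes passed the test. Other mast cell proteases lay the other way and are given with the companion genes: Mcpt1 averaged 0.794 ± 0.421 CPM in C10, 0.692 ± 0.476 CPM in CRS and 0.215 ± 0.115 CPM in CON, and Mcpt2 0.720 ± 0.336 CPM in C10, 0.740 ± 0.619 CPM in CRS and 0.236 ± 0.175 CPM in CON (SD, n = 6 each).

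**Figure D3:**
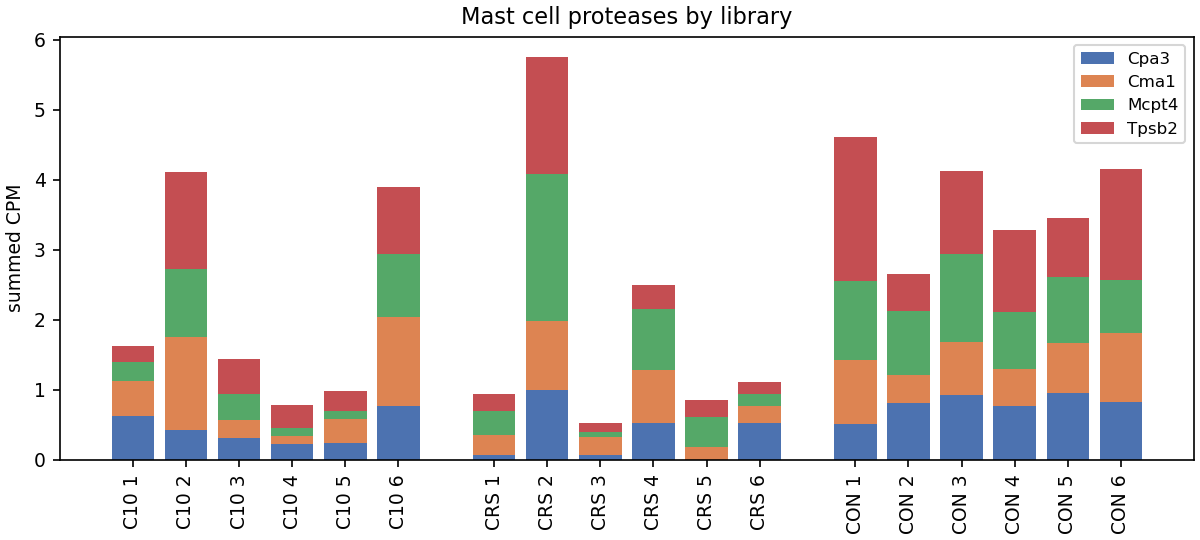
Summed level of the 4 granule proteases in CPM (vertical axis) in each library, stacked by gene, with the libraries of C10, CRS and CON from left to right. CRS 2 is the highest bar at 5.75 CPM, and CRS 3 the lowest at 0.515 CPM.

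Cpa3 encodes carboxypeptidase A3, a granule protease shared by most mast cells (ENSMUSG00000001865, mm10 chr3:20215620-20242181, minus strand). Its lowest, median and highest levels were 0.223, 0.367 and 0.766 CPM in C10, 0, 0.293 and 0.990 CPM in CRS, and 0.511, 0.812 and 0.946 CPM in CON. CRS 1, CRS 3 and CRS 5 held 1, 1 and 0 counts, and every CON library held at least 9. The groups overlapped, through CRS 2 with 16 counts, CRS 4 with 9 and CRS 6 with 9. Means were 0.428 ± 0.221 CPM in C10, 0.360 ± 0.389 CPM in CRS and 0.794 ± 0.156 CPM in CON (SD, n = 6 each). In CRS against CON the log2 fold change was -1.13 ± 0.56 (SE; edgeR adjusted p = 0.383). In C10 against CRS it was 0.24 ± 0.60 (edgeR adjusted p = 0.912), with a sign that turned without CRS 5 (-0.037) or without C10 6 (-0.012), and in C10 against CON -0.89 ± 0.55 (edgeR adjusted p = 0.508). Without CRS 2, the value in CRS against CON was -1.71 (edgeR adjusted p = 0.193).

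Tpsb2 encodes a tryptase, mouse mast cell protease 6 (ENSMUSG00000033825, mm10 chr17:25366550-25368094, plus strand). Levels were 0.224, 0.416 and 1.39 CPM at the lowest, median and highest library of C10, 0.129, 0.237 and 1.67 CPM in CRS, and 0.517, 1.18 and 2.05 CPM in CON. Means were 0.615 ± 0.462 CPM in C10, 0.466 ± 0.594 CPM in CRS and 1.22 ± 0.540 CPM in CON (SD, n = 6 each). Apart from CRS 2, with 27 counts, the CRS libraries held 2 to 6 counts and lay below the lowest CON library. In CRS against CON the log2 fold change was -1.39 ± 0.58 (SE; unadjusted p = 0.0268, edgeR adjusted p = 0.298), and 5 of 6 CRS libraries lay below the CON median. In C10 against CRS it was 0.39 ± 0.60 (edgeR adjusted p = 0.847; -0.028 without C10 2) and in C10 against CON -0.997 ± 0.56 (edgeR adjusted p = 0.458). Without CRS 2, the log2 fold change in CRS against CON was -2.39 with an edgeR adjusted p of 0.116, the smallest adjusted p found for any of the 6 genes under any setting tried.

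Mcpt4 encodes mouse mast cell protease 4, a chymase (ENSMUSG00000061068, mm10 chr14:56059629-56062313, minus strand). Levels were 0.111, 0.327 and 0.965 CPM at the lowest, median and highest library of C10, 0.0644, 0.386 and 2.10 CPM in CRS, and 0.765, 0.933 and 1.25 CPM in CON. Mcpt4 averaged 0.456 ± 0.380 CPM in C10, 0.664 ± 0.757 CPM in CRS and 0.973 ± 0.186 CPM in CON (SD, n = 6 each). CRS spanned both the lowest library, CRS 3 with 1 count, and the highest, CRS 2 with 34 counts. The log2 fold change was -0.55 ± 0.59 (SE; edgeR adjusted p = 0.698) in CRS against CON. It was -0.55 ± 0.62 (edgeR adjusted p = 0.769) in C10 against CRS, a direction that turned to 0.23 without CRS 2, and -1.10 ± 0.61 (edgeR adjusted p = 0.452) in C10 against CON. Without CRS 2, CRS against CON was -1.34 (edgeR adjusted p = 0.267).

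Cma1, the mouse gene for mast cell protease 5, lies on the same chromosome as Mcpt4 (ENSMUSG00000022225, mm10 chr14:55941451-55944675, minus strand). Levels were 0.111, 0.425 and 1.33 CPM at the lowest, median and highest library of C10, 0.181, 0.274 and 0.990 CPM in CRS, and 0.402, 0.742 and 0.983 CPM in CON. Its means were 0.636 ± 0.532 CPM in C10, 0.451 ± 0.336 CPM in CRS and 0.718 ± 0.221 CPM in CON (SD, n = 6 each). C10 2 and C10 6, with 22 and 20 counts, lay above every CON library, and the other C10 libraries held 2 to 9 counts. The log2 fold change was -0.66 ± 0.53 (SE; edgeR adjusted p = 0.59) in CRS against CON, 0.48 ± 0.53 (edgeR adjusted p = 0.764; 0.12 without C10 2, 0.84 without CRS 2) in C10 against CRS and -0.19 ± 0.51 (edgeR adjusted p = 0.905; 0.027 without C10 4) in C10 against CON. Without CRS 2, CRS against CON was -1.03 (edgeR adjusted p = 0.4). Reads of 50 bases could be shared with other genes over 5.38% of the Cma1 positions (a gene model, Gm48934) and 5.48% of those of Mcpt4 (Cma2 and Mcpt9), in the transcripts of GENCODE M21. Cpa3 and Tpsb2 shared none, but the counted span of Tpsb2 differs from its GENCODE M21 gene (25366305 to 25369098), so its value describes another gene model.

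The spread between libraries was estimated gene by gene. The biological coefficient of variation that edgeR fitted was 0.548 for Cpa3, 0.549 for Cma1, 0.666 for Mcpt4 and 0.633 for Tpsb2, against a common value of 0.264 over all genes. Hdc had 0.290 and Ccl11 0.527.

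The alpha and beta chains of the IgE receptor lay at the limit of detection. Fcer1a encodes the alpha chain, which binds IgE (ENSMUSG00000005339, mm10 chr1:173221284-173227214, minus strand), and its counts added up to 21 in C10, 13 in CRS and 16 in CON. Means were 0.211 ± 0.206 CPM in C10, 0.131 ± 0.109 CPM in CRS and 0.150 ± 0.120 CPM in CON (SD, n = 6 each), near the level of 3 counts. Differences of these means were not detectable at this depth: -0.0191 CPM in CRS minus CON, 0.0795 CPM in C10 minus CRS and 0.0604 CPM in C10 minus CON (exact permutation test over all regroupings of 6 against 6, two-sided, p = 0.781, 0.509 and 0.617). Without C10 2, which held 10 counts, C10 minus CRS was 0.000944 CPM and C10 minus CON -0.0181 CPM.

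Ms4a2, the signal-amplifying beta chain (ENSMUSG00000024680, mm10 chr19:11615523-11623719, minus strand), had 20 counts in C10, 9 in CRS and 39 in CON. Its lowest, median and highest counts were 0, 2 and 9 in C10, 0, 1.5 and 4 in CRS, and 3, 4 and 18 in CON. CRS minus CON was -0.271 CPM (exact permutation test, p = 0.0216, unadjusted; 9 such tests were run over 3 genes, and the smallest p this design can give is 0.00216). Over libraries left out in turn the p ran from 0.013 to 0.0671, above 0.05 without CRS 1, CRS 5 or CRS 6. CON 5 held 18 of the 39 CON counts, and without it the difference was -0.143 CPM. That library also held 11 of 16 CON counts of Mcpt8 and 24 of 26 of Prss34, proteases of basophils, which carry the same receptor, together with 59 counts of the eosinophil peroxidase gene Epx, 281 of Mpo and 151 of Elane, granule genes of neutrophil precursors. The part of those cells in the Ms4a2 value was not tested. In the transcripts of GENCODE M21, reads of 50 bases could be shared with Ms4a4b over 2.1% of the Ms4a2 positions. C10 minus CRS was 0.115 CPM and C10 minus CON -0.156 CPM (exact permutation p = 0.351 and 0.411). C10 minus CRS was 0.0419 CPM without C10 6, and C10 minus CON was -0.028 CPM without CON 5. With the filter on low counts left out, edgeR gave Ms4a2 a log2 fold change of -1.91 ± 0.86 (SE) in CRS against CON, with an adjusted p of 0.492.

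Hdc encodes histidine decarboxylase, which makes histamine (ENSMUSG00000027360, mm10 chr2:126593667-126619299, minus strand), and it was far above the protease genes. Its lowest, median and highest levels were 56.9, 80.8 and 96.0 CPM in C10, 46.7, 68.5 and 93.9 CPM in CRS, and 58.1, 68.3 and 169.9 CPM in CON. Hdc averaged 79.6 ± 16.9 CPM in C10, 70.0 ± 16.4 CPM in CRS and 83.3 ± 42.7 CPM in CON (SD, n = 6 each). The 3 groups overlapped, and CON 3 stood above the rest as the highest library with 3128 counts. Log2 fold changes were -0.25 ± 0.24 (SE; edgeR adjusted p = 0.662) in CRS against CON, 0.19 ± 0.24 (edgeR adjusted p = 0.807) in C10 against CRS and -0.06 ± 0.24 (edgeR adjusted p = 0.932) in C10 against CON. Without CON 3 the first was 0.09 and the third 0.27. Per length, Hdc exceeded the summed proteases in every library: the ratio of its FPKM to theirs ran from 3.26 to 22.7 with a median of 9.60 in C10, from 1.46 to 22.7 with a median of 12.5 in CRS, and from 2.74 to 7.51 with a median of 3.46 in CON. Histidine decarboxylase is also known in basophils and in bone marrow precursors of neutrophils.

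The proteases moved together over all libraries, but most of their pairs did not within CON alone. Across the 18 libraries, on log2 CPM, the 6 pairs among Cpa3, Cma1, Mcpt4 and Tpsb2 had Pearson r of 0.65 to 0.83 and Spearman rho of 0.59 to 0.84 (permutation tests, two-sided, 100000 permutations, adjusted over 16 relations: p = 0.00048 to 0.00672 for r and 0.00064 to 0.0244 for rho). With group means removed, r was 0.45 to 0.83, and 4 of the 6 pairs stayed under an adjusted permutation p of 0.05. Without the 2 libraries farthest from the median of the first gene, r was 0.62 to 0.82. CRS 2 was not among the libraries left out for these pairs, so its part in the relation was not tested. Within CON alone the pairs of Cpa3 had r of -0.59 to -0.18 (n = 6), so the joint variation of Cpa3 with the other proteases did not appear there. Cma1 had r of 0.17 with Mcpt4 and 0.83 with Tpsb2 in CON. Mcpt4 and Tpsb2 were the closest pair (r = 0.83, adjusted permutation p = 0.00048; rho = 0.84, adjusted permutation p = 0.00064; r = 0.81 without CRS 3 and C10 4; within groups 0.83, adjusted permutation p = 0.00256). Within single groups their r was 0.89 in C10, 0.92 in CRS and 0.16 in CON (n = 6 each). At such counts part of the spread of each gene is counting error.

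Hdc did not vary with the proteases in this way. Its r with the 4 genes ran from -0.0032 to 0.082 and its rho from -0.13 to 0.088, with adjusted permutation p of 0.918 to 0.991 for r and 0.961 for rho. The relations of Ccl11 with the 4 proteases were weak as well, at r of 0.17 to 0.23 (adjusted permutation p of 0.643 to 0.676). Hdc with Ccl11 gave r = 0.40 (adjusted permutation p = 0.2), rho = 0.27 (adjusted permutation p = 0.563) and r = 0.24 without CON 3 and CRS 2.

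**Figure D4:**
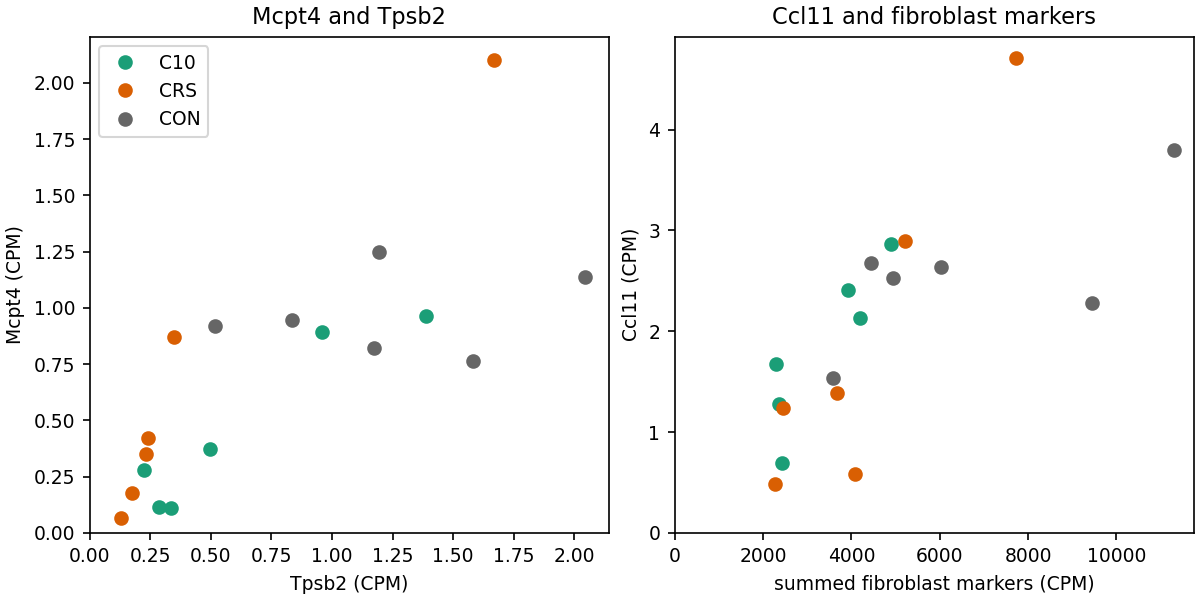
Left, Mcpt4 against Tpsb2 in CPM; right, Ccl11 in CPM against the summed CPM of 9 fibroblast genes; each point is 1 of 18 libraries, coloured by group (C10, CRS, CON). In both panels libraries farther right tend to lie higher, with r = 0.83 and 0.73 on log2 CPM.

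Ccl11, eotaxin-1 (ENSMUSG00000020676, mm10 chr11:82057823-82062955, plus strand), was the better detected of the eotaxins. Its lowest, median and highest levels were 0.690, 1.90 and 2.87 CPM in C10, 0.483, 1.31 and 4.71 CPM in CRS, and 1.53, 2.58 and 3.80 CPM in CON. CRS held the highest library of all, CRS 1 with 81 counts, and the lowest, CRS 5 with 8 counts. Means were 1.84 ± 0.791 CPM in C10, 1.88 ± 1.63 CPM in CRS and 2.58 ± 0.734 CPM in CON (SD, n = 6 each). The log2 fold change was -0.45 ± 0.45 (SE; edgeR adjusted p = 0.68) in CRS against CON and -0.49 ± 0.45 (edgeR adjusted p = 0.678) in C10 against CON. The value in CRS against CON was -0.97 without CRS 1 (edgeR adjusted p = 0.162), -0.24 without CRS 5, -0.26 without CRS 6 and -0.098 without CRS 2 and CRS 5 (edgeR adjusted p = 0.964). In C10 against CRS it was -0.03 ± 0.46 (edgeR adjusted p = 0.985), with a sign that changed under several settings and reached 0.48 without CRS 1.

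Ccl11 varied with the summed level of the fibroblast genes Pdgfra, Pdgfrb, Col1a1, Col1a2, Col3a1, Dcn, Lum, Col6a1 and Col6a2. Their summed level gave r = 0.73 with Ccl11 (adjusted permutation p = 0.00172) and rho = 0.81 (adjusted permutation p = 0.00064). The relation held without CON 3 and CON 5 (r = 0.76) and with group means removed (r = 0.73, adjusted permutation p = 0.0048). Within single groups r was 0.80 in C10, 0.81 in CRS and 0.69 in CON (n = 6 each). The summed fibroblast level had a lowest, median and highest value of 2283, 3182 and 4891 CPM in C10, 2263, 3877 and 7726 CPM in CRS, and 3571, 5478 and 11302 CPM in CON. None of the 9 fibroblast genes passed in a comparison, and 9 of 9 lay below 0 both in CRS against CON (median log2 fold change -0.61) and in C10 against CON (median -0.80). The smallest p belonged to Pdgfrb in CRS against CON, at -0.54 ± 0.19 (SE; edgeR adjusted p = 0.243), and to Col6a2 in C10 against CON, at -1.01 ± 0.25 (edgeR adjusted p = 0.115). In C10 against CRS, Col6a2 had the smallest p again, at -0.36 ± 0.24 (edgeR adjusted p = 0.567). The sum leans on collagen: in CON, Col1a1 averaged 2766 CPM and Col1a2 1973 CPM, with a mean sum of 6620 CPM. Ccl11 was not compared with the other cell type lists, so whether the relation is particular to fibroblasts was not tested. The part of fibroblast content in the level of Ccl11 was not tested either.

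Ccl24, eotaxin-2 (ENSMUSG00000004814, mm10 chr5:135569937-135573049, minus strand), was barely detected. The C10 libraries held 0, 0 and 1 counts at the lowest, median and highest, the CRS libraries 0, 2.5 and 11, and the CON libraries 0, 3 and 5. Added up, C10 held 2 counts in 6 libraries, CRS 24 and CON 16. In C10 no library exceeded 1 count; CRS ranged from 0 counts in CRS 5 and CRS 6 to 11 in CRS 4, and CRS 2 held 8. C10 minus CON was -0.133 CPM (exact permutation test, two-sided, p = 0.039, unadjusted, among the 9 such tests) and stayed at p of 0.00649 to 0.0476 with each library left out in turn. C10 minus CRS was -0.219 CPM (exact permutation p = 0.0736), under 0.05 at 0.0173 without CRS 5 or without CRS 6. CRS minus CON was 0.0865 CPM (exact permutation p = 0.465), 0.0352 CPM without CRS 2 and 0.0065 CPM without CRS 4. EdgeR with no filter on low counts gave log2 fold changes of -3.21 ± 1.06 (SE; adjusted p = 0.322) in C10 against CRS and -2.57 ± 1.08 (adjusted p = 0.454) in C10 against CON. The groups overlap at 0 and 1 counts, so the difference rests on counts near the detection limit.

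Genes of macrophages, a known source of Ccl24, lay mostly below 0 in the 3 comparisons, and none passed the test. Of 10 listed, 9 were tested, and 9 lay below 0 in CRS against CON, 8 in C10 against CRS and 9 in C10 against CON (median log2 fold changes -0.39, -0.55 and -0.75). Cd163, a scavenger receptor, had -1.11 ± 0.31 (SE; edgeR adjusted p = 0.21) in CRS against CON. Cd68, a lysosomal marker, had -0.94 ± 0.39 (edgeR adjusted p = 0.307) in C10 against CRS and -1.50 ± 0.39 (edgeR adjusted p = 0.137) in C10 against CON. The summed macrophage level had a lowest, median and highest value of 269, 301 and 564 CPM in C10, 179, 422 and 1016 CPM in CRS, and 409.5, 614 and 990.2 CPM in CON. Its part in the level of Ccl24 was not tested.

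By the rule for genes of like pattern, which took the highest Pearson r over 18 libraries among 16647 genes of at least 1 CPM, Cpa3 was closest to Gtf3c3 (r = 0.84, rho = 0.86), Nov (r = 0.81, rho = 0.75) and Me2 (r = 0.79, rho = 0.58). Ccl11 was closest to Tes (r = 0.92, rho = 0.89), Itga1 (r = 0.91, rho = 0.85) and Man2a1 (r = 0.90, rho = 0.83). These values were picked as the highest of many and carry no test. Ccl24 did not pass the filter and has no such genes.

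The label of the set was read against other mast cell genes. Of 21 companion genes, 13 were tested and 0 passed in any comparison; 10 lay below 0 in CRS against CON, 6 in C10 against CRS and 9 in C10 against CON, with median log2 fold changes of -0.08 in CRS against CON, 0.02 in C10 against CRS and -0.10 in C10 against CON. Genes restricted to mast cells were scarce: Tpsab1, the other tryptase, had 3 counts in C10, 8 in CRS and 13 in CON, and Mrgprb2, the receptor for basic secretagogues, had 7, 2 and 7 in the same order. Mcpt1, a protease of mucosal mast cells, passed the filter with 81 counts in C10, 70 in CRS and 23 in CON. Its log2 fold change was 1.66 ± 0.55 (SE; unadjusted p = 0.00735, edgeR adjusted p = 0.227) in CRS against CON, 0.19 ± 0.48 (edgeR adjusted p = 0.913) in C10 against CRS and 1.85 ± 0.55 (unadjusted p = 0.00319, edgeR adjusted p = 0.174) in C10 against CON. Mcpt2, also of mucosal mast cells, had 73 counts in C10, 75 in CRS and 25 in CON, and the tryptase Tpsg1 30, 72 and 30, both below the filter. Mcpt1 and Mcpt2 are paralogs, and reads that could come from either were not measured. Kit, the receptor for stem cell factor, was abundant at 50.2 CPM in C10, 44.8 CPM in CRS and 47.2 CPM in CON, but other cells express it as well. Gata2, a transcription factor of mast cells and other lineages, averaged 39.8 ± 4.30 CPM in C10, 41.0 ± 3.22 CPM in CRS and 50.2 ± 4.95 CPM in CON (SD, n = 6 each). Its log2 fold change was -0.29 ± 0.08 (SE; edgeR adjusted p = 0.211) in CRS against CON and -0.34 ± 0.08 (edgeR adjusted p = 0.117) in C10 against CON. In C10 against CRS the smallest p of the list was that of Ndst2, which sulfates granule heparin, at 0.22 ± 0.11 (edgeR adjusted p = 0.425).

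IgE signalling and mediator genes gave no call either. Of 15 genes of the IgE receptor and its signalling, 14 were tested, and 12 lay below 0 in CRS against CON, 9 in C10 against CRS and 10 in C10 against CON (median log2 fold changes -0.16, -0.09 and -0.24). Fcer1g, the gamma chain that the IgE receptor shares with other Fc receptors, averaged 30.3 CPM in C10, 46.1 CPM in CRS and 47.9 CPM in CON. Its log2 fold change was -0.60 ± 0.35 (SE; edgeR adjusted p = 0.489) in C10 against CRS and -0.66 ± 0.35 (edgeR adjusted p = 0.43) in C10 against CON. In CRS against CON the smallest p was that of Fcer2a, the low-affinity IgE receptor, at 1.26 ± 0.91 (edgeR adjusted p = 0.547). Of 12 genes of histamine and leukotriene handling, 9 were tested, of which 5, 5 and 7 lay below 0 in that order of comparisons (medians -0.06, -0.17 and -0.13). Hrh2, the histamine receptor H2, averaged 4.20 CPM in C10, 2.00 CPM in CRS and 4.39 CPM in CON. Its log2 fold change was -1.13 ± 0.41 (SE; edgeR adjusted p = 0.25) in CRS against CON and 1.07 ± 0.41 (edgeR adjusted p = 0.262) in C10 against CRS. In C10 against CON Ptger3, a prostaglandin E2 receptor, had the smallest p, at -0.23 ± 0.12 (edgeR adjusted p = 0.409).

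The eotaxin receptor and the eosinophil gene Epx were scarce, while Siglecf, a gene of eosinophils and of other cells, was detected in every library. Ccr3, the eotaxin receptor, had 50 counts in C10, 17 in CRS and 32 in CON and did not pass the filter. Ccl26 had 0 counts in all 18 libraries. A list of 9 genes held Ccr3, related chemokines and the peptidase gene Dpp4. It is not limited to CCR3 ligands, and Ccl2 and Ccl12 are not counted as such here. Of the 9 genes, 7 were tested and 0 called. Below 0 lay 5 in CRS against CON, 3 in C10 against CRS and 2 in C10 against CON (medians -0.24, 0.22 and 0.07). The smallest p was that of Ccl12 in CRS against CON, at -0.36 ± 0.40 (SE; edgeR adjusted p = 0.709), and of Ccl2 in C10 against CRS, at -0.51 ± 0.38 (edgeR adjusted p = 0.602), and in C10 against CON, at -0.84 ± 0.38 (edgeR adjusted p = 0.345). Among 9 eosinophil genes, 4 were tested and 0 called, with 2 below 0 and 2 above 0 in each comparison (medians -0.20, -0.0099 and 0.012 in the same order). Alox15, a lipoxygenase also made by epithelium, had 0.55 ± 0.20 (edgeR adjusted p = 0.246) in CRS against CON and 0.43 ± 0.20 (edgeR adjusted p = 0.357) in C10 against CON. Siglecf, a lectin of mouse eosinophils that other cells express as well, averaged 7.60 CPM in C10, 4.49 CPM in CRS and 7.73 CPM in CON. Its log2 fold change was -0.78 ± 0.35 (edgeR adjusted p = 0.328) in CRS against CON and 0.75 ± 0.35 (edgeR adjusted p = 0.362) in C10 against CRS. Epx, a defining gene of eosinophils, had 24 counts in C10, 6 in CRS and 59 in CON, all 59 of them in CON 5.

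Among the genes of the lists, Il33 alone was called, in C10 against CRS and in C10 against CON; it belongs to the type 2 signals that act upstream of eotaxins. Il33, an alarmin of barrier tissue that activates mast cells, was higher in C10, at 125.8 ± 6.75 CPM, against 78.3 ± 5.76 CPM in CRS and 91.1 ± 13.6 CPM in CON (SD, n = 6 each). Its lowest C10 library, at 112.8 CPM, lay above the highest library of CRS, at 85.9 CPM, and of CON, at 110.4 CPM. Such separation was not particular to Il33 among the listed genes. Dcn, Col6a2 and Cd68 did not overlap in C10 against CON, nor Chil3 in C10 against CRS, and none of these was called. Of all tested genes, 1.82% and 0.88% did not overlap in these comparisons. The log2 fold change was 0.68 ± 0.09 (SE; edgeR adjusted p = 0.00233) in C10 against CRS and passed under all 27 other settings tried. In C10 against CON it was 0.47 ± 0.09 (edgeR adjusted p = 0.0327), and 11 of 27 other settings gave an adjusted p over 0.05, up to 0.116. These were the fit with no filter, the replicate block, and the fits without CON 2, CON 3, CON 4, CON 5, C10 1, C10 3, C10 4, C10 5 or C10 6. Of the 15 genes listed 9 were tested, and the other 8 were not called; 8 lay below 0 in CRS against CON, 4 in C10 against CRS and 6 in C10 against CON (medians -0.15, 0.012 and -0.18). Chil4, a chitinase-like protein and not itself an upstream signal, had the smallest p in CRS against CON, at 6.65 ± 1.49 (edgeR adjusted p = 0.206). In C10 against CON it had 5.24 ± 1.40 (edgeR adjusted p = 0.138). CRS 2 held 32603 of its 48077 CRS counts, and 1 CON library held 403 of its 529 CON counts. Il4 averaged 4.56 CPM in C10, 4.83 CPM in CRS and 5.15 CPM in CON, and Il13 had 4 counts in C10, 14 in CRS and 1 in CON.

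Genes of other cells that can hold some of the 9 were read in the same way, and 0 of them passed. Of 6 genes listed for basophils 3 were tested, Il4, Itga2b and Cd69, which are not limited to basophils. Of these, 1, 3 and 1 lay below 0 in CRS against CON, C10 against CRS and C10 against CON (medians 0.19, -0.08 and 0.15). Itga2b had the smallest p in CRS against CON, at 0.35 ± 0.21 (SE; edgeR adjusted p = 0.462), and in C10 against CRS, at -0.19 ± 0.21 (edgeR adjusted p = 0.749), and Il4 in C10 against CON, at -0.18 ± 0.24 (edgeR adjusted p = 0.788). Mcpt8, the defining basophil protease, had 2 counts in C10, 6 in CRS and 16 in CON. Prss34, also a basophil protease, had 8, 3 and 26 in the same order of groups. Neither passed the filter, most of the CON counts of both were in CON 5, and basophil content was not tested. Among 10 genes of neutrophils and their precursors 7 were tested, with 6, 0 and 5 below 0 in that order (medians -0.68, 0.27 and -0.24). Mmp9 had -1.14 ± 0.42 (edgeR adjusted p = 0.254) in CRS against CON and 0.56 ± 0.42 (edgeR adjusted p = 0.603) in C10 against CRS, and Prtn3 -0.71 ± 0.50 (edgeR adjusted p = 0.564) in C10 against CON. All 7 dendritic cell genes were tested, with 7, 1 and 4 below 0 (medians -0.36, 0.34 and -0.0034). Zbtb46 had -0.36 ± 0.11 (edgeR adjusted p = 0.227) in CRS against CON and 0.33 ± 0.11 (edgeR adjusted p = 0.222) in C10 against CRS, and Itgax -0.45 ± 0.39 (edgeR adjusted p = 0.648) in C10 against CON. Of the 6 olfactory neuron genes 0, 3 and 0 lay below 0 (medians 0.21, -0.03 and 0.20). Gng13 had 0.86 ± 0.34 (edgeR adjusted p = 0.282) in CRS against CON and -0.56 ± 0.34 (edgeR adjusted p = 0.509) in C10 against CRS, and Ano2 0.30 ± 0.25 (edgeR adjusted p = 0.634) in C10 against CON.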

How the data were processed

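Per the labels, poly(A) RNA of mouse nasal mucosa was sequenced in 18 libraries with a VAHTS Universal V6 kit, whose strandedness is not stated. The authors deposited a table of raw read counts per gene and a table of FPKM; per the submitters' processing notes the build is mm10, while aligner, counter and annotation were not given in the sources used here. Each deposited FPKM equals count over gene length times 1 constant per library; the constants correspond to 0.877 to 1.08 of the column totals. All columns matched a library, and 0 were left over.

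From the counts, edgeR 4.0.16 (R 4.3.3) kept 18291 of 54532 genes with filterByExpr by group. TMM factors and quasi-likelihood F-tests used all 18 libraries, with the group as the only term. Tests are two-sided, with Benjamini-Hochberg adjustment over all genes tested, and an adjusted p under 0.05 counts as called. CPM use TMM-scaled library sizes; an SE is the fold change over the square root of F. Genes below the filter were compared by exact permutation of mean CPM (SciPy 1.17.1, Python 3.11.15). On simulated counts, 61 of 100 changes of 2-fold were called in CRS against CON, 52 in C10 against CRS and 62 in C10 against CON. Of 100 changes of 4-fold, 92, 93 and 91 were called in that order. The changed genes were drawn from all genes tested, so these shares do not hold for genes of low count and wide spread such as the proteases. Of 153 library pairs, none was a repeat count of another (chi-square over its degrees of freedom at least 14.1).

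Alternatives were RLE size factors, no filter, a stricter filter (at least 1 CPM), a replicate block, a fit of only the 2 groups compared, DESeq2 1.42.0, limma 3.58.1 on log2 of FPKM plus 1 or 0.1, each library left out in turn, and CRS 2 and CRS 5 left out together. Leaving out libraries in the permutation tests was added after the data were seen.

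The text names the 9 genes, 9 fixed companions (Kit, Tpsab1, Mcpt8, Ccr3, Fcer1g, Il4, Il13, Gata2 and Mrgprb2), the genes called in each list or else the 1 of smallest p per comparison, and the 3 genes of most like pattern for Cpa3 and Ccl11. Mcpt1, Mcpt2, Tpsg1, Epx, Siglecf, Prss34, Mpo, Elane, Ccl26 and Chil3 were named after their values were seen. Col1a1, Col1a2 and Dcn were singled out from their list in the same way. The genes and lists were chosen with earlier results of these data known. Counts of strand-overlapping genes cannot be separated; of the 9, Cpa3 overlaps Mir7007, which had 1 count.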

Additional observations from a re-analysis of the deposited data

Results flagged for a closer look

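A single library lay far from the other 5 of its group in 4 of the 27 sets of 1 gene and 1 group examined. The rule was Dixon's criterion for 6 values, which sets the gap to the nearest library against the whole range of the group. For normally distributed values, chance alone marks about 1 in 20 such sets. CPM from low counts need not be so distributed, and the chance rate for these sets was not measured. Hdc was highest in CON 3, at 169.9 CPM (3128 counts), with a gap of 0.874 of the range. Tpsb2 was highest in CRS 2, at 1.67 CPM (27 counts), with a gap of 0.858. Ms4a2 was highest in CON 5, at 1.00 CPM (18 counts), with a gap of 0.738. Fcer1a was highest in C10 2, at 0.603 CPM (10 counts), with a gap of 0.636.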

How the results depend on the processing

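No alternative called any of the 6 tested genes in a comparison. Over their 18 log2 fold changes, 473 alternative values were computed: 454 kept the direction, 19 reversed it, and the smallest adjusted p was 0.116. The stricter filter gave values for Tpsb2, Hdc and Ccl11 only, and the fit of C10 and CRS alone for 2 of the genes. In C10 against CRS, Mcpt4 was 0.27 without CRS 2 and CRS 5, and Ccl11 was 0.13 with the replicate number as a block, 0.085 on FPKM plus 1 and 0.23 on FPKM plus 0.1. Hdc in C10 against CON was 0.0019 with the replicate block, 0.0088 on FPKM plus 1 and 0.013 on FPKM plus 0.1. With each library left out in turn, the log2 fold change ran in C10 against CRS from -0.037 to 0.81 for Cpa3, from -0.91 to 0.23 for Mcpt4, from -0.028 to 1.39 for Tpsb2, from -0.25 to 0.48 for Ccl11, from 0.12 to 0.84 for Cma1 and from 0.077 to 0.28 for Hdc. It ran in C10 against CON from -0.54 to 0.027 for Cma1 and from -0.16 to 0.27 for Hdc, and in CRS against CON from -0.35 to 0.087 for Hdc. Those that kept their sign ran in CRS against CON from -1.71 to -0.86 for Cpa3, -1.03 to -0.49 for Cma1, -1.34 to -0.31 for Mcpt4, -2.39 to -1.18 for Tpsb2 and -0.97 to -0.24 for Ccl11, and in C10 against CON from -1.13 to -0.76 for Cpa3, -1.46 to -0.90 for Mcpt4, -1.41 to -0.79 for Tpsb2 and -0.65 to -0.32 for Ccl11. The difference of mean CPM of Fcer1a ran from -0.0514 to 0.0164 in CRS minus CON, from 0.000944 to 0.112 in C10 minus CRS and from -0.0181 to 0.0959 in C10 minus CON. That of Ms4a2 ran from -0.311 to -0.143, from 0.0419 to 0.157 and from -0.229 to -0.028 in the same order, and that of Ccl24 from 0.0065 to 0.134, from -0.267 to -0.139 and from -0.163 to -0.106. Of all genes, CRS against CON called 1, but 3 with the stricter filter, 0 with the replicate block, 0 with only the 2 groups, 178 with DESeq2, 2 on FPKM plus 1 and 2 on FPKM plus 0.1, and 0 to 994 with 1 library left out (994 without CRS 1). C10 against CRS called 15, but 23 with the stricter filter, 9 with only the 2 groups, 351 with DESeq2, 23 on FPKM plus 1, 100 without CRS 2 and CRS 5, and 7 to 81 with 1 library left out (81 without CRS 2). C10 against CON called 29, but 17 with no filter, 12 with the replicate block, 161 with only the 2 groups, 309 with DESeq2, 74 without CRS 2 and CRS 5, and 3 to 110 with 1 library left out (3 without C10 4, 110 without CRS 1). The cause of these shifts was not tested. The replicate numbers share only a number: deviations of same-numbered libraries correlated at -0.574 to 0.519 over 18 pairs, 8 of them over 0.1. Depth limits the proteases, at most 36 counts in a library, and the genes below the filter most.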
